A study of Homo sapiens with 4 samples.

Results

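The genes described here are the components and regulators of the complement system, chosen by symbol: the soluble proteins of each activation route, the terminal proteins, the soluble and membrane-bound regulators, and the receptors. Of 37 listed genes, 34 were measured, out of 19090 genes in all, by 43 of the 25893 probes with a gene symbol. CFHR2, CFHR3 and CFHR5 were not analysed here. The arrays held RNA of Huh7, an established human hepatocellular carcinoma cell line, in 2 groups of 2 arrays each: cells stably carrying a short hairpin RNA against ACOT12 (shACOT12) and cells stably carrying a scramble short hairpin RNA, both kept under puromycin selection before profiling. ACOT12 encodes a cytosolic acetyl-CoA thioesterase, and the study asked which genes lie downstream of it in liver cancer cells. The labels do not say whether the 2 samples of a group were grown separately, nor whether the stable cells were clones; p-values then cover the spread between these samples alone, and part or all of it may be technical.

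Complement is a cascade of plasma proteases that marks surfaces for clearance and can end in a pore through the membrane. The classical route starts when C1q with its proteases C1r and C1s binds antibody, the lectin route when mannose-binding lectin or ficolins bring MASP proteases to sugars, and the alternative route runs on factors B and D; all lead to cleavage of C3 and then C5. The hepatocyte makes most of the circulating components, while host cells carry regulators on their own membranes that stop the cascade.

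Values are log2 intensities after quantile normalization, which gives all arrays 1 distribution, and each gene is read by its brightest probe. A probe's brightness depends on the probe as well as on the RNA, so values are compared between arrays gene by gene; the median of all genes only sorts genes into brighter and dimmer ones and does not rank their amounts of RNA. As deposited, the median intensity was 327 and 451 on shACOT12 replicates 1 and 2, against 377 and 395 on scramble replicates 1 and 2. ACOT12 itself read 7.58 and 7.37 on the shACOT12 arrays, against 8.28 and 7.47 on the scramble arrays, so the groups overlapped and a reduction of its mRNA was not detected (log2 fold change -0.40, SE 0.35, limma adjusted p = 1). Groups are therefore named as labelled. All 13 measured hepatocyte markers lay at or above the median of all genes, as did 2 of 14 macrophage markers (C1QC and CD14), 0 of 8 endothelial, 2 of 8 fibroblast and 2 of 7 lymphocyte markers. Without detection calls, a gene below the median is not described as expressed or silent. In bulk RNA, fewer cells making a transcript and less of it per cell cannot be told apart.

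Of the 34 complement genes, 0 passed an adjusted p of 0.05 in limma, and the adjusted p was 1 for each; over all genes the same test called 0.00524%, which is 1 gene. At an unadjusted p under 0.05 there was 1 complement gene, C4BPA, which was higher, against 1.76% of all genes, 0.985% higher and 0.775% lower. The 2 groups stood apart on all arrays for 9 of the 34 genes, of which 4 were higher and 5 lower in shACOT12 cells, against 21.5% of all genes, 11.5% with shACOT12 above and 10.0% with shACOT12 below. That share of the complement genes, 26.5%, is close to the share over all genes. The largest differences were toward higher values for C4BPA (log2 fold change 0.72) and C1QBP (0.58) and toward lower values for C1S (-0.60) and CLU (-0.51), where log2 fold changes are shACOT12 minus scramble throughout. No complement gene differed 2-fold, as 1.59% of all genes did.

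Among the 34, 14 had higher and 20 lower mean values in shACOT12 cells, and their median log2 fold change was -0.07, against 0.0078 for all genes, of which 51.4% were higher and 48.6% lower. The split depended on the scaling: 18 of 34 were higher with 75th percentile scaling (55.9% of all genes) and 17 of 34 with the values as deposited (51.0% of all genes), and the median was then 0.023 and -0.0065. The 20 complement genes whose mean lay at or above the median of all genes, 9.14, numbered 7 higher and 13 lower. Of all genes that bright, 50.6% were higher and 49.4% lower. The groups stood apart for 7 of the 20, against 24.2% of all genes at or above the median. For these 20 the median absolute log2 fold change was 0.25, while the 2 arrays of a group differed by a median of 0.21 in shACOT12 cells and 0.45 in scramble cells. The difference between groups was larger than the replicate difference in both groups for 5 of the 34 genes, 14.7%, as for 12.5% of all genes.

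**Figure D1:**
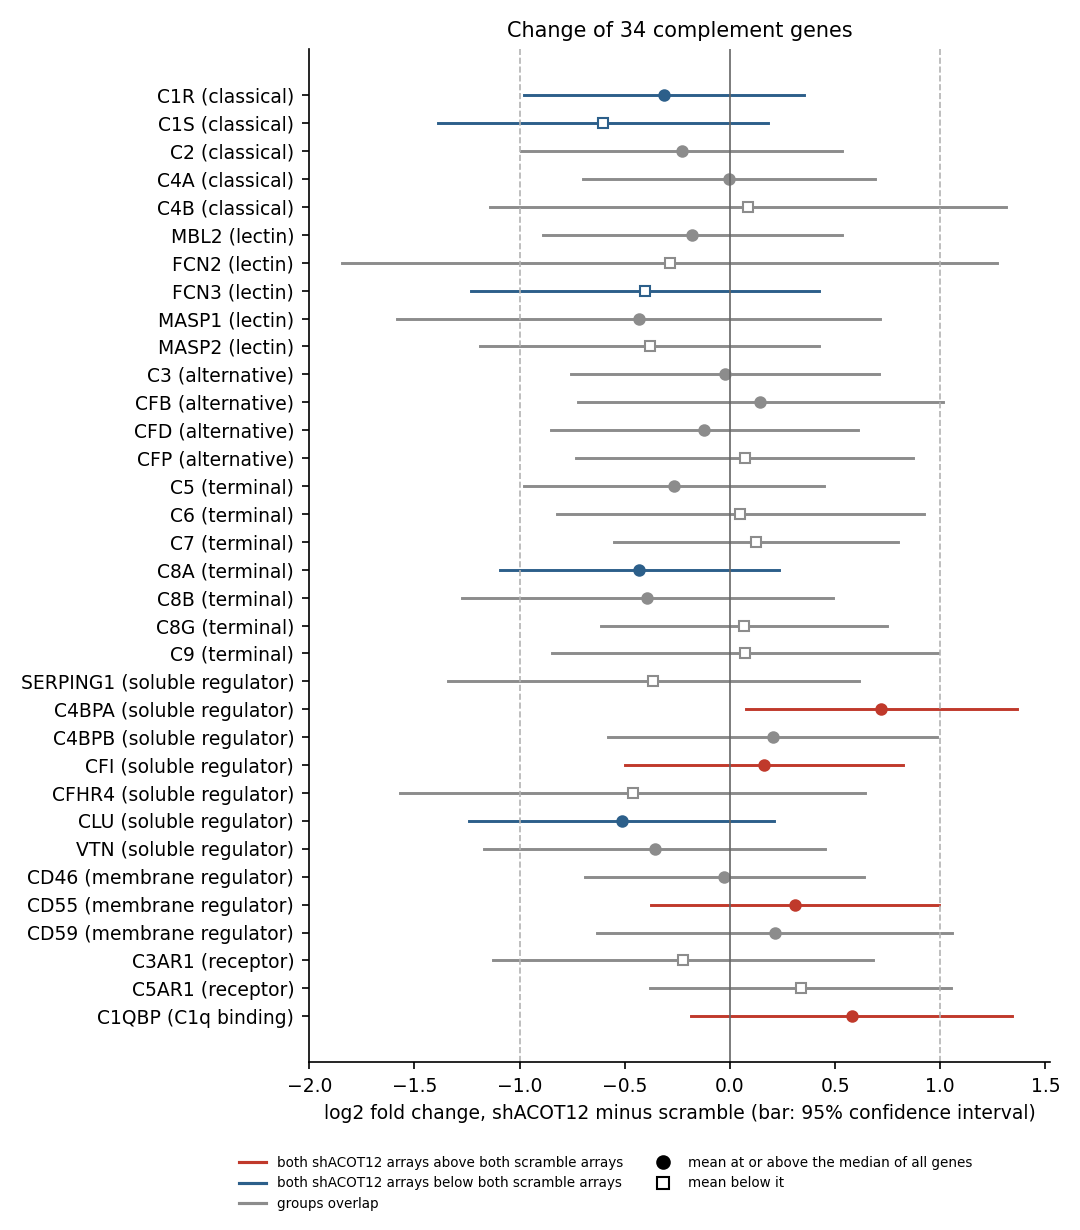
Log2 fold change, shACOT12 minus scramble, of 34 complement genes in order of role, with limma's 95% confidence interval as bars and dashed lines at 2-fold. Filled circles are genes with a mean at or above the median of all genes and open squares those below it. The interval of 1 gene, C4BPA, lies wholly on one side of 0, as for 336 of all 19090 genes. Those of 16 of the 34 lie wholly within 2-fold, against a larger share of all genes, 11388 of 19090.

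The sequences printed next are the 250 bases before the transcription start of C4BPA, C1QBP and C8A (RefSeq, GRCh38.p14), shown because these genes had the largest differences without overlap among those with an entry in the promoter table used here. Capitals mark each CG dinucleotide and a GTTAAT motif, the half-site of the hepatocyte factor HNF1. C4BPA lies on the plus strand (chr1:207103983-207104232), C1QBP on the minus strand (chr17:5439156-5439405) and C8A on the plus strand (chr1:56854547-56854796).
C4BPA: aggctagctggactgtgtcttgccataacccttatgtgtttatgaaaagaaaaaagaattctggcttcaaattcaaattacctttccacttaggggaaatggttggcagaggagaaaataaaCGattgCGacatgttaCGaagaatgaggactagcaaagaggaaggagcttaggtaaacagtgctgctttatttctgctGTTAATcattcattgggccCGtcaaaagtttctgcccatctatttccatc
C1QBP: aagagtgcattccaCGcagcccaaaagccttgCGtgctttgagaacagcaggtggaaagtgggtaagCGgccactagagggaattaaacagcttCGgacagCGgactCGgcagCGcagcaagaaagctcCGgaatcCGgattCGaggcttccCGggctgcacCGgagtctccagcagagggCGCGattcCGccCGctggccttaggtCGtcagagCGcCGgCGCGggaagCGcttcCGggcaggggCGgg
C8A: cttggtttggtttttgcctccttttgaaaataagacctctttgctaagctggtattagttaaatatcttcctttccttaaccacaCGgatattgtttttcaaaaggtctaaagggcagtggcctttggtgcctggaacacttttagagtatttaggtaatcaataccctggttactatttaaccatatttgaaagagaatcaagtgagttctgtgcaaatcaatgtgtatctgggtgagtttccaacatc

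The stretch before C1QBP holds 24 CG dinucleotides and is 63.6% G and C, against 4 and 40.4% before C4BPA and 1 and 37.2% before C8A. Over 25 complement genes with an entry the medians were 4 CG dinucleotides and 54.0%, and over all 27305 promoters 11 and 58.0%. On either strand, GTTAAT was found before 2 of the 25, C4BPA and CFI, and in 6.22% of all promoters. Both genes had higher values in shACOT12 cells, at 0.72 (SE 0.27) and 0.16 (SE 0.28). A link between the motif and the direction was not tested. A STAT-type motif, TTCNNNGAA, was found before 6 of the 25 (C7, CD59, CFB, MASP2, MBL2 and VTN) and in 6.78% of all promoters. Of these 6 genes, 3 had higher and 3 had lower mean values in shACOT12 cells. These are matches of letters in a window of this length and not known sites.

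Of the 5 proteases and substrates of the classical route, 4 had lower means in shACOT12 cells, and 0 passed the test. The number lower was 3 with 75th percentile scaling or cyclic loess, where C4A turned, and 2, C1R and C1S, without scramble replicate 2. C1R, the protease that first activates within the C1 complex, read 10.86 and 10.86 on the shACOT12 arrays, against 11.31 and 11.03 on the scramble arrays. Both shACOT12 values lay below both scramble values, by 0.18 at the nearest, with a log2 fold change of -0.31 (SE 0.28) that ranged from -0.46 to -0.17 when 1 array was left out. C1S, which C1r cleaves and which in turn cleaves C4 and C2, read 9.05 and 8.62 on the shACOT12 arrays, against 9.70 and 9.17 on the scramble arrays, again without overlap. Its log2 fold change was -0.60 (SE 0.33, 95% confidence interval -1.39 to 0.18), from -0.88 without scramble replicate 2 to -0.34 without scramble replicate 1; its mean of 9.13 fell just short of the median of all genes, and its array values are given after they had been seen. C1S and C1R are next to each other on chromosome 12, and both were lower. Neighbours did not always go the same way: C2 and CFB, close together on chromosome 6, stood at -0.23 and 0.14.

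C2, the protease part of the classical C3 convertase, read 9.19 and 9.02 on the shACOT12 arrays, against 9.03 and 9.64 on the scramble arrays, where scramble replicate 2 alone stood high (log2 fold change -0.23, SE 0.32). C4A, one of the paired genes for C4, the other part of that convertase, read 9.28 and 9.60 on the shACOT12 arrays, against 9.32 and 9.57 on the scramble arrays. The means of the groups were thus almost equal, with a log2 fold change of -0.0024 (SE 0.29) and an interval of -0.70 to 0.69. C4B, its neighbour and near-identical copy, stood at 0.09 (SE 0.51), with values below the median of all genes. Probes for C4A and C4B may not tell the copies apart.

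All 5 genes of the lectin route had lower means in shACOT12 cells, 4 of 5 with the values as deposited or 75th percentile scaling, where FCN2 turned, and 3 of 5 without scramble replicate 2. Values overlapped between groups for 4 of them, and 0 passed. MBL2, which encodes mannose-binding lectin, read 13.09 and 13.13 on the shACOT12 arrays, against 13.05 and 13.52 on the scramble arrays. Scramble replicate 2 stood above the other 3 arrays, and the log2 fold change of -0.18 (SE 0.30) was 0.06 without it. MASP1, a protease of the lectin complexes, read 10.60 and 11.35 on the shACOT12 arrays, against 10.78 and 12.03 on the scramble arrays. Its replicates differed more than its groups: the log2 fold change was -0.43 (SE 0.48), 0.19 without scramble replicate 2 and -1.05 without scramble replicate 1. The next brightest MASP1 probe, with 10.24 and 10.48 on the shACOT12 arrays against 10.21 and 10.43 on the scramble arrays, gave 0.04 and did not show the high value of scramble replicate 2.

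The other 3 lectin genes lay below the median of all genes. MASP2, the protease that cleaves C4 and C2 in this route, stood at -0.38, from -0.77 without shACOT12 replicate 2 to -0.01 without shACOT12 replicate 1, and its second probe gave -0.29. FCN3 and FCN2, ficolins that recognise sugars and acetylated surfaces, stood at -0.40 and -0.29. FCN3 was the 1 lectin gene without overlap, but its groups were only 0.0059 apart at the nearest values, 7.06 on shACOT12 replicate 2 and 7.07 on both scramble arrays, and its value was -0.0028 without shACOT12 replicate 1.

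C3, on which all routes converge, had nearly the same mean in both groups: it read 16.27 and 16.36 on the shACOT12 arrays, against 16.08 and 16.61 on the scramble arrays. The shACOT12 values lay between the scramble values, and the log2 fold change was -0.02 (SE 0.31, interval -0.76 to 0.71), with 0.06 from its second probe. Its sign turned with the values as deposited (0.04) and with 75th percentile scaling (0.07). CFB, the protease of the alternative C3 convertase, read 10.20 and 10.03 on the shACOT12 arrays, against 9.54 and 10.41 on the scramble arrays. Here too the shACOT12 values fell inside the scramble range, with a log2 fold change of 0.14 (SE 0.36) that was 0.58 without scramble replicate 2 and -0.29 without scramble replicate 1. CFD, which cleaves factor B, read 9.81 and 9.28 on the shACOT12 arrays, against 9.68 and 9.65 on the scramble arrays (log2 fold change -0.12, SE 0.31). CFP, or properdin, which stabilises that convertase, was dim on all arrays, between 4.20 and 4.87, and stood at 0.07.

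**Figure D2:**
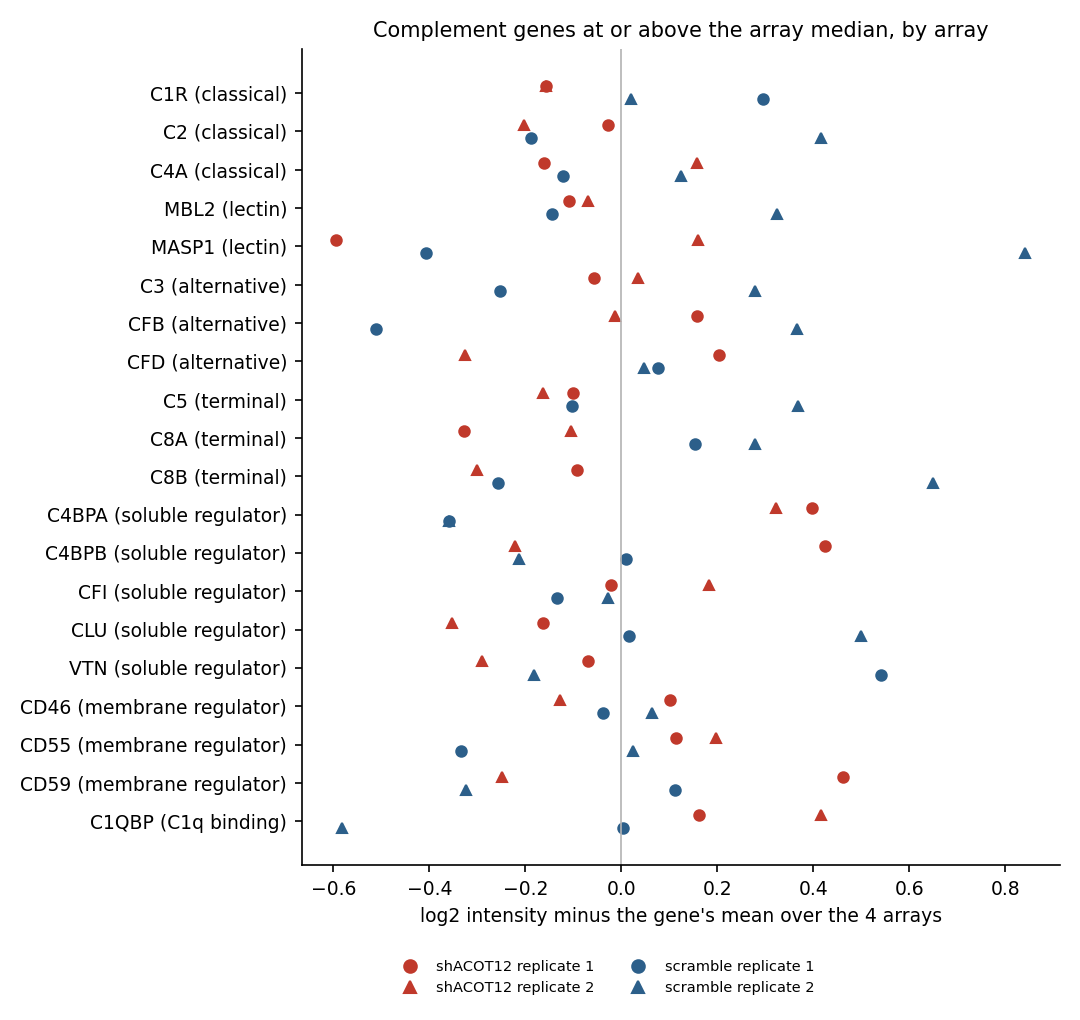
Log2 intensity minus the gene's own mean over the 4 arrays, for the 20 complement genes at or above the median of all genes, with 1 point per array; shACOT12 arrays are drawn above scramble arrays in each row. The groups are apart for 7 genes (24.2% of all genes at or above the median), with the widest gap for C4BPA. Scramble replicate 2 is the rightmost point for 9 genes (31.8% of all genes at or above the median), among them MASP1, C8B, C5 and CFB.

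Of the 7 terminal genes, 3 had lower means, and these were the 3 at or above the median of all genes; the number lower was 6 without shACOT12 replicate 1 and 5 without scramble replicate 2. C8A, a chain of the complement protein C8 that inserts into the membrane, read 10.62 and 10.84 on the shACOT12 arrays, against 11.10 and 11.23 on the scramble arrays. The groups were 0.26 apart at the nearest values, with a log2 fold change of -0.43 (SE 0.28, interval -1.10 to 0.23) that ranged from -0.55 to -0.32 when 1 array was left out. C8B, the chain encoded by the neighbouring gene on chromosome 1, read 9.10 and 8.89 on the shACOT12 arrays, against 8.94 and 9.84 on the scramble arrays. It had a similar mean difference, -0.39 (SE 0.37), but scramble replicate 1 lay among the shACOT12 values, and without scramble replicate 2 the value was 0.06. C5, whose larger fragment starts assembly of the pore, read 12.54 and 12.47 on the shACOT12 arrays, against 12.53 and 13.00 on the scramble arrays. Scramble replicate 2 again stood apart from the other 3 arrays, and the log2 fold change of -0.26 (SE 0.30) was -0.03 without it. C6, C7, C9 and C8G, the other pore proteins and the lipocalin chain of C8, lay below the median, with log2 fold changes of 0.05 to 0.13 and groups that overlapped.

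C4BPA, which encodes the alpha chain of C4b-binding protein, the plasma regulator that dismantles the classical C3 convertase, had the largest difference of the complement genes. Its deposited intensity was 1130 and 1248 on the shACOT12 arrays, against 710 and 745 on the scramble arrays. On the log2 scale it read 10.26 and 10.18 on the shACOT12 arrays, against 9.50 and 9.50 on the scramble arrays. The 2 arrays of each group lay close together and the groups were 0.68 apart, with a log2 fold change of 0.72 (SE 0.27, interval 0.07 to 1.36), 1.65-fold, which did not pass (limma adjusted p = 1, unadjusted p = 0.0338). Leaving out 1 array gave 0.67 to 0.78. With the values as deposited it was 0.71, and 0 complement genes then had an unadjusted p under 0.05 in limma, against 157 of all 19090 genes. The value rests on 1 probe.

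C4BPB, the beta chain of the same protein and the next gene on chromosome 1, read 10.64 and 10.00 on the shACOT12 arrays, against 10.23 and 10.00 on the scramble arrays. Only shACOT12 replicate 1 stood above the rest, and the log2 fold change was 0.20 (SE 0.33), turning to -0.12 without that array. Its second probe, at 2.29 to 3.67 among the dimmest on the arrays, gave -0.84. CD55, or decay-accelerating factor, is the gene after C4BPA and is described with the membrane regulators.

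CFI, the protease that cuts C3b and C4b with the help of cofactors such as C4b-binding protein, read 13.62 and 13.83 on the shACOT12 arrays, against 13.51 and 13.61 on the scramble arrays. The groups did not overlap, but by only 0.008, and the log2 fold change was 0.16 (SE 0.28), from 0.06 without shACOT12 replicate 2 to 0.27 without shACOT12 replicate 1. CLU, or clusterin, a secreted chaperone that also blocks pore assembly, read 10.19 and 10.00 on the shACOT12 arrays, against 10.37 and 10.85 on the scramble arrays. It was lower without overlap, at -0.51 (SE 0.30, interval -1.24 to 0.21), with -0.24 from its second probe, and it ranged from -0.76 to -0.27 when 1 array was left out. VTN, or vitronectin, another plasma inhibitor of the pore, read 9.68 and 9.46 on the shACOT12 arrays, against 10.29 and 9.56 on the scramble arrays. Scramble replicate 1 alone stood high, and the log2 fold change of -0.36 (SE 0.34) was 0.0035 without it.

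SERPING1, the inhibitor of C1r, C1s and the MASP proteases, and CFHR4, of the factor H-related family, lay below the median. SERPING1 stood at -0.36 (SE 0.41), from -0.83 without scramble replicate 1 to 0.10 without scramble replicate 2. CFHR4 stood at -0.46 (SE 0.46), from -1.12 without shACOT12 replicate 1 to 0.22 without shACOT12 replicate 2. The sign of both thus turned with the array left out. CFHR genes are close in sequence, so a probe may read more than 1 of them.

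Membrane regulators did not pass either, and their means differed by at most 0.31. CD55, which speeds the decay of C3 convertases on the cell surface, read 10.07 and 10.16 on the shACOT12 arrays, against 9.63 and 9.98 on the scramble arrays. It was higher without overlap, 0.09 at the nearest, with a log2 fold change of 0.31 (SE 0.29, interval -0.38 to 1.00), from 0.13 without scramble replicate 1 to 0.49 without scramble replicate 2. C4BPB, C4BPA and CD55, neighbours on chromosome 1, all had higher means in shACOT12 cells, at 0.20, 0.72 and 0.31, except that C4BPB turned to -0.32 when its probes were averaged. CD46, a cofactor for factor I whose gene follows after 3 others, read 14.53 and 14.30 on the shACOT12 arrays, against 14.39 and 14.49 on the scramble arrays. Its groups overlapped fully, at -0.03 (SE 0.28). CD59, which blocks the last step of pore assembly, read 14.45 and 13.74 on the shACOT12 arrays, against 14.10 and 13.67 on the scramble arrays. Both replicates numbered 1 stood higher than both numbered 2, the log2 fold change was 0.21 (SE 0.35), and the second probe gave -0.12.

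The anaphylatoxin receptors C3AR1 and C5AR1, best known from myeloid cells, were dim, between 5.01 and 6.03 on every array, and stood at -0.22 (SE 0.38) and 0.34 (SE 0.30), with groups that overlapped or shared a value. C1QBP, a mainly mitochondrial protein first found as a binder of the C1q heads, read 9.64 and 9.89 on the shACOT12 arrays, against 9.48 and 8.89 on the scramble arrays. It was higher without overlap, 0.16 at the nearest, with a log2 fold change of 0.58 (SE 0.32, interval -0.19 to 1.34), and it ranged from 0.29 without scramble replicate 2 to 0.87 without scramble replicate 1.

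Of the 4 arrays, shACOT12 replicate 2 was most often the lowest for these genes and scramble replicate 2 most often the highest. Over all 34 genes shACOT12 replicate 2 was the lowest of the 4 arrays for 15, or 44.1%, against 24.0% of all genes. Among the 20 brighter ones it was lowest for 9, 45.0%, against 23.8% of all genes at or above the median. This was not particular to complement genes: it was lowest for 7 of the 13 hepatocyte markers, 53.8%. The same held for 8 of 23 genes in the signalling list described at the end, 34.8%, but for 4 of 28 in the second complement list below, 14.3%. Scramble replicate 2 was the highest array for 11 of the 34, or 32.4%, against 23.6% of all genes. Among the 20 brighter ones it was highest for 9, 45.0%, against 31.8% of all genes at or above the median. It was also the lowest array for 31.7% of all genes at or above the median, and for 2 of the 20. The median deviation of the 34 genes from their own means was -0.04 and -0.10 on shACOT12 replicates 1 and 2, against 0.0066 and 0.04 on scramble replicates 1 and 2. The lead of scramble replicate 2 over the next array was 0.74 for C8B, 0.68 for MASP1, 0.51 for SERPING1, 0.48 for CLU, 0.47 for C5 and 0.44 for C2. Between the scramble arrays there was no general shift of the 34: 17 of them were higher on replicate 2 than on replicate 1, against 49.5% of all genes, with a median difference of 0.05. For the 20 brighter ones it was 13, or 65.0%, against 49.8% of all genes at or above the median. Their median difference was 0.18, against -0.001. For the hepatocyte markers it was 2 of 13. Without shACOT12 replicate 2, 15 of the 34 complement genes had higher values in shACOT12 cells, against 49.5% of all genes. The median log2 fold change of the complement genes was then -0.06. Without scramble replicate 2, 17 of the 34 complement genes had higher values in shACOT12 cells, against 49.3% of all genes. The median log2 fold change of the complement genes was then 0.0075, where all arrays gave 14 higher and a median of -0.07.

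**Figure D3:**
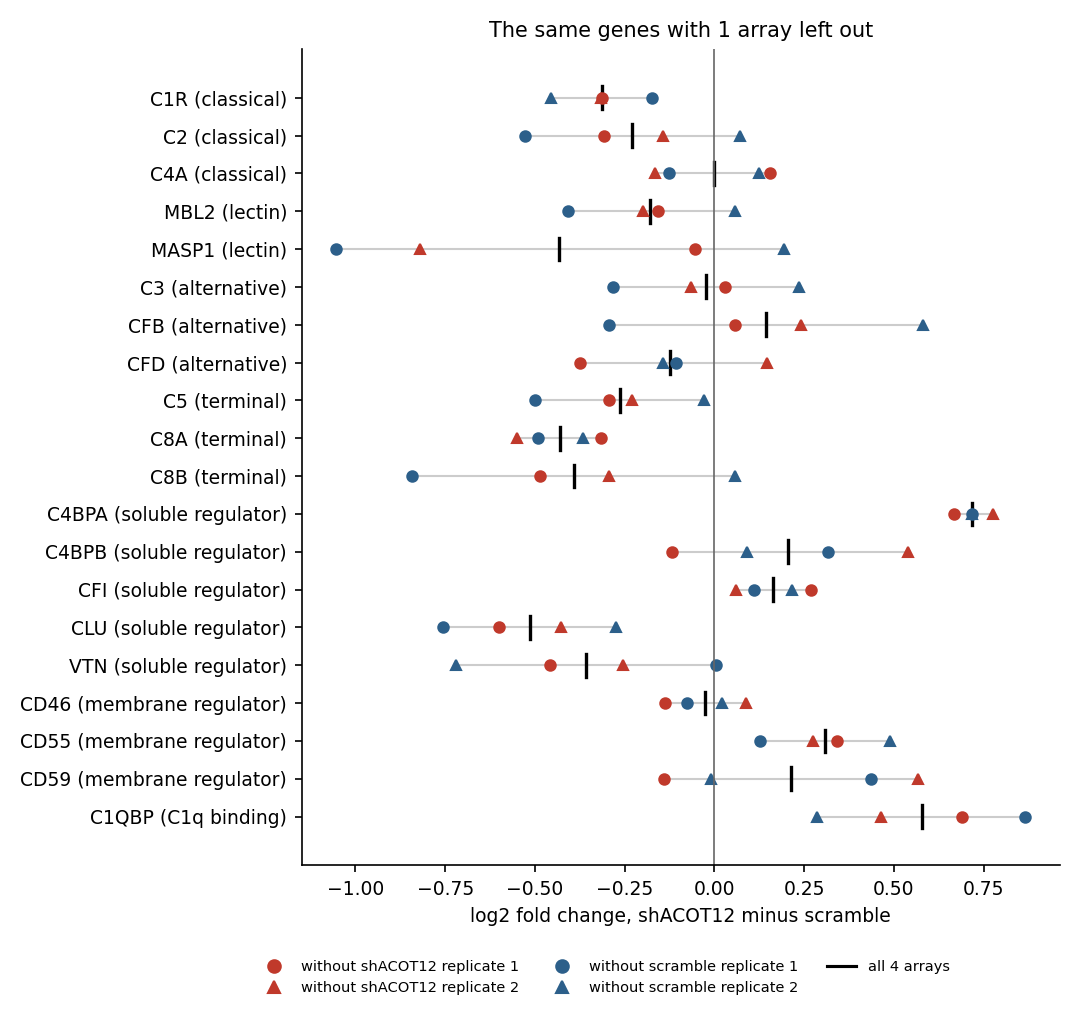
Log2 fold change, shACOT12 minus scramble, of the 20 brighter complement genes with all 4 arrays (black bar) and with each array left out (points). C4BPA stays between 0.67 and 0.78, while MASP1 spans -1.05 to 0.19 and C8B -0.84 to 0.06, both ends set by the scramble arrays.

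Of the 34 genes, 8 had more than 1 probe. The probes differed in sign for C4B, MASP1, C3, C4BPB and CD59, and had the same sign for C1R, MASP2 and CLU. For C1R the dimmer probe gave -0.01, at 5.01 to 6.20 on the arrays. Apart from C4BPB, the probes of a gene differed by at most 0.48, for MASP1, against an SE of 0.49 for its main probe; for C1R they differed by 0.30, against an SE of 0.29.

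**Figure D4:**
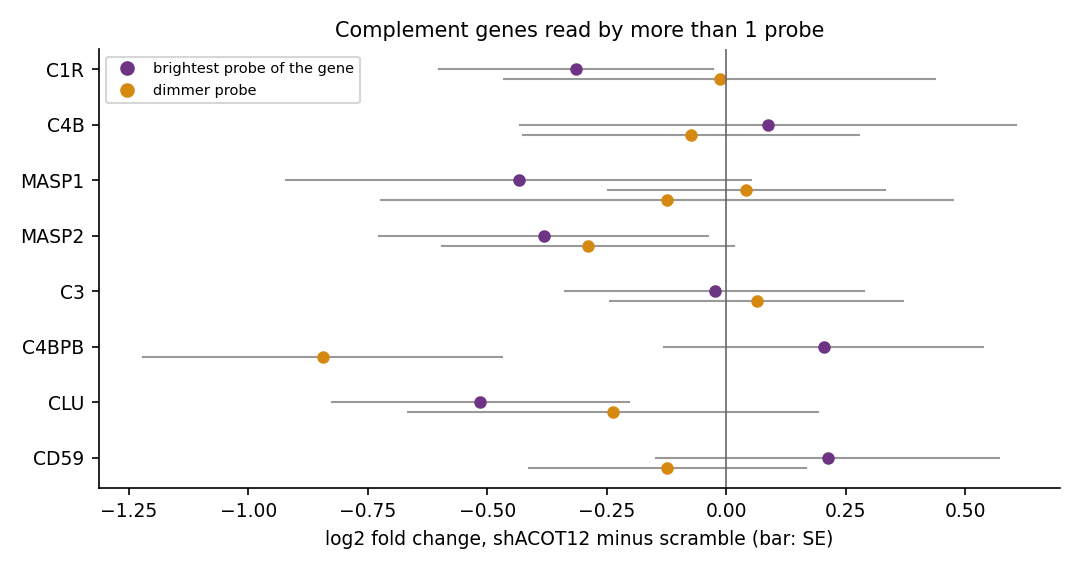
Log2 fold change, shACOT12 minus scramble, for each probe of the 8 complement genes read by more than 1, with bars of 1 SE from a fit by probe. The dimmer C4BPB probe at -0.84 is the one point far from its main probe, at 0.20.

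Beyond the 34, a second list of complement genes, 28 of 29 measured, held other recognition molecules, C1q chains, carboxypeptidases, receptors and surface inhibitors. In limma 0 rose and 0 fell at the adjusted threshold, and 0 had an unadjusted p under 0.05. Their means split evenly, 14 higher and 14 lower, with a median log2 fold change of -0.0008. C1QA and C1QB, chains of C1q that are made mainly by macrophages, had means of 5.26 and 5.75, below the median of all genes. C1QC read 10.73 and 11.61 on the shACOT12 arrays, against 11.03 and 10.97 on the scramble arrays. Among the 8 genes of this list at or above the median of all genes, the groups stood apart for 0, against 24.2% of all genes that bright. Scramble replicate 2 was the highest array for 5 of these 28 genes, or 17.9%, against 23.6% of all genes. Among the 8 at or above the median it was highest for 4, against 31.8% of all such genes. Of these 8, 4 were higher on it than on scramble replicate 1, against 49.8% of all such genes.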

How the data were processed

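Total RNA was extracted with Trizol, amplified to amino allyl RNA and labelled with Cy5 on single-colour arrays, per the labels' protocols. The values are the intensities that the authors deposited, on a linear scale and in 1 column per sample; some were below 0. Scanner, background correction and normalization are not given in the sources used here. Columns carry the samples' own names.

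Intensities under 1 were set to 1 and converted to log2. Log2 medians spanned 0.462 between arrays, above a limit of 0.1, so the arrays were quantile normalized, which would hide a shift of most genes. Probes were named from a table of platform annotation (28264 probes, 25893 with 1 symbol, 0 with several, 2371 with none), and gene identifiers matched to RefSeq (GRCh38.p14, names and gene order) changed 0 symbols. The brightest probe by mean over all arrays represented a gene. The test was limma 3.58.1 under R 4.3.3 (eBayes after lmFit, two-sided, no block; residual degrees of freedom 2, prior 4.69), with Benjamini-Hochberg adjustment over 19090 genes and a threshold of 0.05. The fit was tested on simulated data. An exact permutation test of 2 against 2 arrays could reach a two-sided p of 0.333 at best, and the number of arrays limits the precision. The members and lists were chosen with earlier results of these data known. Complement genes with a mean at or above the median of all genes are given array by array. The others were planned by range and counts, but most are given by their own log2 fold change. C1S, FCN3, C1QC and CEBPB were named with array values after these had been seen. Promoters (the first listed start per gene) came from RefSeq. Alternatives were other scalings, priors, a floor at the 20th percentile, the dimmest 30% of genes left out, the mean of a gene's probes, the replicate number as a block and each array left out.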

Additional observations from a re-analysis of the deposited data

How the results depend on the processing

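None of the complement genes measured passed the adjusted threshold in limma with all arrays or under any of the 13 alternatives; the lowest adjusted p, without shACOT12 replicate 1, was 0.916, and 0 to 2 had an unadjusted p under 0.05. The number of all genes past it was 1, and became 0 with the values as deposited, 75th percentile scaling, cyclic loess, a floor at the 20th percentile or any array left out, 3 with an intensity trend in the prior, and 25 with the replicate block. Arrays with the same number deviated together with a correlation of 0.184 across genes, and 0.280 across genes at or above the median of all genes. The labels do not say whether arrays with the same number share a culture or batch, and with 2 pairs this was not tested. The block left 0 complement genes past the threshold. The number of complement genes higher in shACOT12 cells, 14, became 8 of 24 on leaving out the dimmest 30% of genes. Of all genes then kept, 50.7% were higher. The number was 11 of 34 with a floor at the 20th percentile, against 46.8% of all genes. Without 1 array, where 49.3% to 54.5% of all genes were higher, it was 12 to 17 of the complement genes. Their median log2 fold change was -0.15 without the dimmest 30%, -0.0065 as deposited, 0.023 with 75th percentile scaling, -0.015 with a floor and -0.14 with probes averaged, and -0.13 to 0.0075 without 1 array. Some genes changed sign; the cause was not tested. With the values as deposited they were FCN2 (0.0097), C3 (0.041), CD46 (0.0081). With 75th percentile scaling they were C4A (0.0083), FCN2 (0.039), C3 (0.071), CD46 (0.037). With cyclic loess they were C4A (0.011), CFP (-0.065). With a floor at the 20th percentile they were C8G (-0.0061), C3AR1 (0.016). The log2 fold changes of FCN2, CFP, C9 and C5AR1 became 0 with this floor. With probes averaged per gene they were C3 (0.0197), C4BPB (-0.32). Without 1 array, the genes that changed sign were ACOT12 (-0.80 to 0.0079), C2 (-0.53 to 0.072), C4A (-0.17 to 0.15), C4B (-0.68 to 0.82), MBL2 (-0.41 to 0.056), FCN2 (-1.06 to 0.53), MASP1 (-1.05 to 0.19), C3 (-0.28 to 0.24), CFB (-0.29 to 0.58), CFD (-0.37 to 0.15), CFP (-0.26 to 0.47), C6 (-0.40 to 0.51), C7 (-0.029 to 0.28), C8B (-0.84 to 0.058), C8G (-0.10 to 0.23), C9 (-0.36 to 0.55), SERPING1 (-0.83 to 0.10), C4BPB (-0.12 to 0.54), CFHR4 (-1.12 to 0.22), VTN (-0.72 to 0.0035), CD46 (-0.14 to 0.087), CD59 (-0.14 to 0.57), C3AR1 (-0.76 to 0.25). Signal over background was not used, since no detection flags were at hand.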

Other observations

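A list of components of IL-6, IL-1 and interferon signalling, pathways known to act on complement and acute-phase genes in liver cells, and of liver transcription factors had 23 of 27 members measured. It holds activators as well as inhibitors (SOCS1, SOCS3 and NFKBIA), so its counts give no direction of signalling. In limma 0 passed the adjusted threshold and 0 had an unadjusted p under 0.05; 7 had higher and 16 lower means in shACOT12 cells, and the median log2 fold change was -0.11. For 5 of them, 1 higher and 4 lower, the groups stood apart on all arrays, against 21.5% of all genes. IRF1, an interferon-induced transcription factor, read 10.40 and 10.26 on the shACOT12 arrays, against 10.40 and 11.42 on the scramble arrays (log2 fold change -0.58). Its groups were only 0.0063 apart at the nearest values, and the mean of the shACOT12 arrays minus scramble replicate 1 was -0.07, so most of the difference was on scramble replicate 2. IFNGR1, the ligand-binding chain of the interferon gamma receptor, read 12.54 and 12.37 on the shACOT12 arrays, against 12.82 and 12.69 on the scramble arrays (-0.30). IL1RAP, the accessory chain of the IL-1 receptor, read 12.91 and 13.05 on the shACOT12 arrays, against 12.81 and 12.65 on the scramble arrays (0.25).

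Scramble replicate 2 stood high in this list. It was the highest array for 10 of the 23, 43.5%, against 23.6% of all genes. It was also highest for 10 of the 17 genes at or above the median of all genes, 58.8%, against 31.8% of all such genes. Of the 17, 15 were higher on it than on scramble replicate 1, 88.2%, against 49.8% of all such genes. The median difference was 0.35, against -0.001. CEBPB, a transcription factor of the acute-phase response named after its values were seen, read 12.12 and 12.64 on the shACOT12 arrays, against 12.41 and 13.50 on the scramble arrays.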
